A study of Sus scrofa with 18 samples.

Results

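Integrins and the proteins that tie them to the actin cytoskeleton were followed through early and mid-gestation in the endometrium of Yorkshire and Meishan gilts. The 7 genes were ITGB3, ITGB1 and ITGAV, which encode integrin subunits, TLN1 and VCL, which encode the linker proteins talin and vinculin, and PXN and BCAR1, which encode the scaffold proteins paxillin and p130Cas. The measurements were those of all probe sets that carry one of these symbols in the annotation of the platform, together with the probe sets that the study itself named PXN and BCAR1. This rule gave 7 of the 6765 genes named on the array, measured by 10 of its 24123 probe sets, 8 named by the platform and 2 by the study. PXN and BCAR1 were among the genes the study had singled out from these same arrays, so their direction here is not independent evidence. The study also picked ITGB3 for RT-PCR, by its pattern on these arrays and for its role in remodeling of the endometrium.

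Integrins are receptors made of an alpha and a beta subunit that hold a cell to its surrounding matrix. Bound to a ligand they gather talin and vinculin, which reach to actin filaments, and scaffolds such as paxillin and p130Cas, which bring in kinases. In the pig the trophoblast does not invade the uterus but attaches to the luminal epithelium, where integrins and ligands such as osteopontin are known to meet.

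The study compared gestational day (GD) 15, in the middle of attachment, GD26, at its end, and GD50, when the placenta is established, in gilts of each breed mated to boars of their own breed. There were 6 groups of 3 arrays, Yorkshire GD15, GD26 and GD50 and Meishan GD15, GD26 and GD50. Each array held RNA pooled from 1 conceptus attachment site of each of 2 gilts, and the 3 arrays of a group held different sites of the same 2 gilts. Differences between animals are thus not in the replicate spread, and the p-values weigh each change against variation among sites and arrays, not among animals. Values are log2 intensities as deposited, a difference of 1 being a doubling.

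The Yorkshire GD26 and GD50 arrays stood apart from the rest. Their median log2 intensity was 7.78 to 8.13 (6 arrays), against 8.31 to 8.40 in the other 12, their hybridization controls averaged 11.7 to 13.7, against 9.997 to 11.3, and 26.4% to 32.6% of their probe sets lay under a log2 value of 2.5, against 33.0% to 35.6%. Over the 9320 probe sets that passed a filter on low values (intensity above 100 in at least 6 arrays), the median change was -0.47 in Yorkshire on GD26 versus GD15, -0.51 on GD50 versus GD15, and -0.06 and -0.10 in Meishan. Yorkshire lay at a median of -0.42 from Meishan on GD26 and -0.46 on GD50, and the shift is given beside the changes below where it matters. Of the probe sets that changed in Yorkshire on GD26 versus GD15, 68.9% fell, but 51.4% did once each array was centred on its own median. Lower values in Yorkshire made up 79.8% of the breed differences on GD26 and 80.8% on GD50, and 53.8% and 51.9% after centring. Of 7 measured markers of trophoblast, the outer layer of the conceptus, 5 were above an intensity of 100 on every array after GD15. The others, CYP19A1 and IFNG, were above 100 on only 2 arrays and 1 array. The summed intensity of the 7 of 8 listed markers with a probe set was 36.4 to 71.6 on the Yorkshire GD15 arrays, 73873 to 89149 on GD26 and 46536 to 65818 on GD50, and in Meishan 34.2 to 36.0, 40555 to 74639 and 70843 to 88222. On GD15 the trophoblast markers PAG6, a pregnancy-associated glycoprotein, and PLET1 were near the lowest value of the array. All 5 markers of epithelium, the lining of the endometrium, were above an intensity of 100 on every array. The part of trophoblast RNA in the changes after GD15 was not tested, and fewer cells of a type and less RNA per cell cannot be told apart in such bulk tissue.

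Of the 10 probe sets, 7 passed the filter, exactly 1 for each gene. The intensity was above 100 on all 18 arrays for ITGB1, ITGAV, TLN1, VCL and PXN, on 10 arrays for ITGB3 and on 7 for BCAR1. BCAR1 passed through its 6 GD15 arrays, so a fall after GD15 was built into its passing, and it stands in the counts below as a description. The other 3, which were not tested, were a second TLN1 probe set, whose highest value was 4.54, and a pair of further VCL probe sets. Of these, 1 never exceeded 4.71 and the other exceeded 100 on 2 arrays.

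**Figure D1:**
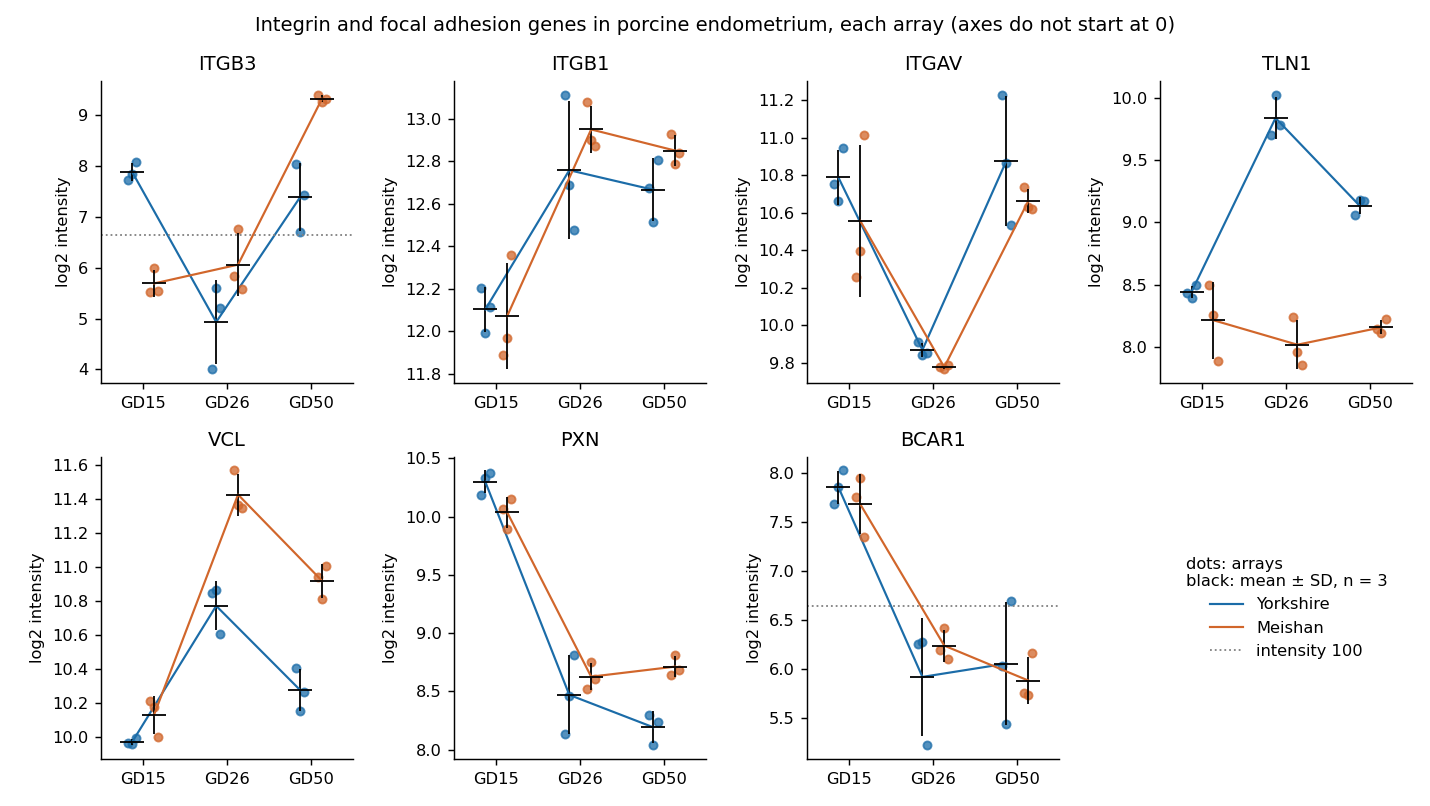
Log2 intensity (vertical axes) of the 7 genes on GD15, GD26 and GD50 (horizontal axes) in Yorkshire (blue) and Meishan (orange). Dots are arrays, black bars the mean ± SD of 3 arrays, and the dotted line an intensity of 100. ITGB3 on Yorkshire GD26 lay at 4.0 to 5.59, below all Yorkshire GD15 arrays, while TLN1 on Yorkshire GD26 lay at 9.71 to 10.03, above every Meishan array.

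All 7 genes changed in Yorkshire endometrium on GD26 versus GD15, where the trophoblast completes its attachment. ITGB1, TLN1 and VCL rose, and ITGB3, ITGAV, PXN and BCAR1 fell, the fall of BCAR1 being built into its passing the filter. In Meishan ITGB1 and VCL rose and ITGAV, PXN and BCAR1 fell, and ITGB3 and TLN1 did not pass the test. Thus 3 of 7 rose and 4 fell in Yorkshire, where 20.3% of all 9320 probe sets rose and 44.9% fell. In Meishan 2 of 7 rose and 3 fell, with 23.8% and 27.1% of all probe sets. The median change of the 7 was -0.92 in Yorkshire and -0.20 in Meishan.

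Fewer genes changed on GD50 versus GD26, when the placenta was growing. ITGB3 and ITGAV rose in both breeds, TLN1 fell in Yorkshire and VCL fell in Meishan. That was 2 of 7 up and 1 down in Yorkshire, where 5.72% of all probe sets rose and 7.85% fell, and 2 up and 1 down in Meishan, where 8.2% rose and 10.2% fell. Over the whole interval, GD50 versus GD15, 2 genes rose and 2 fell in Yorkshire (19.5% and 47.0% of all probe sets) and 3 rose and 2 fell in Meishan (23.0% and 28.9%).

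**Figure D2:**
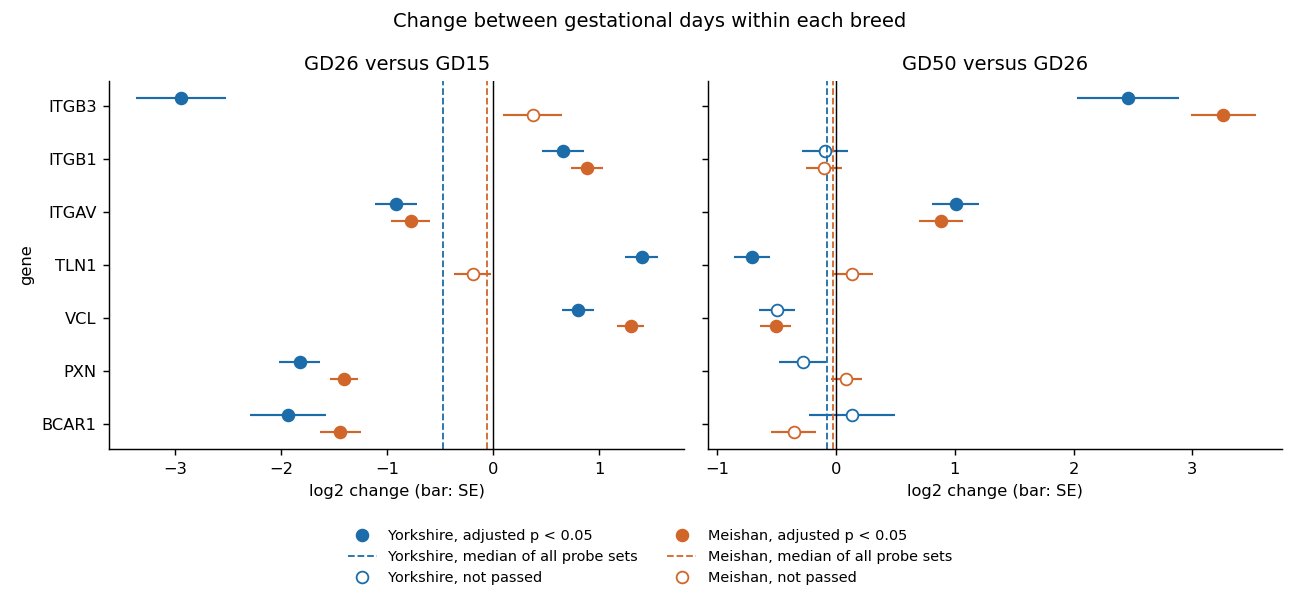
Log2 change of each gene (rows) on GD26 versus GD15 and on GD50 versus GD26, in Yorkshire (blue) and Meishan (orange), with bars of 1 SE. Filled dots passed an adjusted p of 0.05, open dots did not, and dashed lines are the median of all probe sets (-0.47 in Yorkshire on the left). ITGB3 at -2.95 and TLN1 at 1.40 in Yorkshire stand away from their Meishan dots at 0.37 and -0.20.

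ITGB3 encodes the beta subunit that pairs with the alpha V chain in the vitronectin receptor and with the alpha IIb chain on platelets, and it had the widest course of the 7. In Yorkshire its log2 intensity was 7.72, 7.85 and 8.07 on GD15, 4.0, 5.59 and 5.20 on GD26 and 8.03, 6.71 and 7.42 on GD50. In Meishan it was 5.53, 6.0 and 5.54 on GD15, 5.84, 6.76 and 5.57 on GD26 and 9.40, 9.25 and 9.31 on GD50. Yorkshire endometrium thus dipped on GD26 and came back to a range that overlapped GD15, whereas Meishan endometrium stayed low until GD26 and was high only on GD50. The group means spanned 4.39, with a median SD of 0.45 within groups.

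In Yorkshire ITGB3 fell by 2.95 ± 0.43 on the log2 scale on GD26 versus GD15 (SE, adjusted p = 2.65e-04), a change of -2.48 beyond the median of all probe sets. All Yorkshire GD26 arrays were under an intensity of 100, so the fall was at least 2.36-fold. It then rose on GD50 versus GD26 by 2.46 ± 0.43 (adjusted p = 0.0057, at least 1.67-fold). With intensities under 100 set to 100 that second change was 0.74 and did not pass (adjusted p = 0.14). GD50 and GD15 differed by -0.49 ± 0.43 in Yorkshire (adjusted p = 0.33). In Meishan the change to GD26 was 0.37 ± 0.28 (adjusted p = 0.29), and the gene rose on GD50 versus GD26 by 3.26 ± 0.28 (adjusted p = 8.01e-05) and versus GD15 by 3.63 ± 0.28 (adjusted p = 4.89e-06, at least 6.40-fold).

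The breeds stood in opposite order early and late. ITGB3 was higher in Yorkshire than in Meishan on GD15 by 2.19 ± 0.38 (adjusted p = 0.0013, at least 2.36-fold), with all 3 Yorkshire arrays above all 3 Meishan arrays. On GD50 it was lower in Yorkshire, with a difference of -1.93 ± 0.38 (adjusted p = 6.49e-04) and again no overlap, or -1.47 beyond the median of all probe sets. On GD26 the difference was -1.13 ± 0.38 (adjusted p = 0.022), but the arrays overlapped and every GD26 array but 1 was under 100. That call was lost when the arrays were centred on their medians (-0.78, adjusted p = 0.12), with intensities under 100 set to 100 (-0.04, adjusted p = 0.93), without Yorkshire GD26 array 1 (-0.66, adjusted p = 0.12) or without Meishan GD26 array 2 (-0.77, adjusted p = 0.12). The change to GD26 itself differed between the breeds, by -3.32 ± 0.54 in Yorkshire relative to Meishan (adjusted p = 3.58e-04). Of the 9 arrays of Yorkshire GD26 and of Meishan GD15 and GD26 only 1 was above 100, and with intensities under 100 set to 100 that difference was -1.28 ± 0.31 (adjusted p = 0.0043). The difference of the later change was -0.81 and did not pass (adjusted p = 0.44), but with 100 as the floor it was -1.89 ± 0.31 and passed (adjusted p = 0.0014).

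Platelet and macrophage markers were set beside ITGB3, since these cells carry integrins. ITGA2B, the alpha IIb chain, GP9 and PPBP, the 3 of 7 platelet markers with a probe set, lay at group means of 2.18 to 2.71, near the lowest value of the array at 2.18, in all 6 groups. The summed intensity of 5 of 7 macrophage markers was 936 to 1464 on the Yorkshire GD15 arrays, 1654 to 2303 on GD26 and 1239 to 1598 on GD50, and in Meishan 416 to 1165, 1802 to 3200 and 2614 to 3498. The sum reached its highest values on Meishan GD50, as ITGB3 did, but overlapped there with Meishan GD26, where ITGB3 was still low. It did not dip on Yorkshire GD26. AIF1 was the brightest of these markers in every group, and MARCO was near the lowest value of the array throughout. Mean log2 intensities of AIF1, CD163 and MRC1 were higher on Yorkshire GD26 than on GD15. CD14, above 100 on only 1 array, did dip in Yorkshire, at 5.85 on GD15, 5.50 on GD26 and 6.53 on GD50. In Meishan CD14 was at 5.60, 5.60 and 6.68. The part of macrophages in the ITGB3 values was not tested.

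ITGAV encodes the alpha V chain, the partner of ITGB3 and of several other beta subunits in receptors for vitronectin, osteopontin and latent TGF-beta. Its log2 intensity in Yorkshire was 10.76, 10.66 and 10.95 on GD15, 9.91, 9.84 and 9.85 on GD26 and 11.23, 10.87 and 10.54 on GD50. The Meishan arrays read 10.26, 10.40 and 11.02 on GD15, 9.78, 9.76 and 9.79 on GD26 and 10.74, 10.63 and 10.62 on GD50. In both breeds the GD26 arrays were the lowest and lay close together, and GD15 overlapped GD50.

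The fall to GD26 was -0.92 ± 0.20 in Yorkshire (adjusted p = 0.0027) and -0.78 ± 0.19 in Meishan (adjusted p = 0.0062), which is -0.45 and -0.72 beyond the medians of all probe sets. ITGAV rose on GD50 versus GD26 by 1.01 ± 0.20 in Yorkshire (adjusted p = 0.0098) and 0.89 ± 0.19 in Meishan (adjusted p = 0.0105), 2.01-fold and 1.85-fold. Neither change was found to differ between the breeds (-0.14 ± 0.27 and 0.12 ± 0.27, adjusted p = 0.71 and 0.84). ITGAV and ITGB3 thus shared the dip on GD26 in Yorkshire, while in Meishan ITGAV fell and ITGB3 did not pass the test.

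A further probe set that the study names ITGAV, but that the platform does not, gave a like course. Its Yorkshire arrays read 10.93, 10.83 and 11.09 on GD15, 9.71, 8.58 and 9.03 on GD26 and 10.38, 9.93 and 9.67 on GD50. Its Meishan arrays read 10.22, 10.38 and 10.89 on GD15, 9.27, 9.34 and 9.24 on GD26 and 10.48, 10.31 and 10.57 on GD50. The means of both probe sets were lowest on GD26 in both breeds, but the probe sets disagreed in Yorkshire. The fall to GD26 was -1.85 ± 0.29 in the second probe set (adjusted p = 4.45e-04), against -0.92 in the first. The rise on GD50 versus GD26 did not pass in the second (0.89 ± 0.29, adjusted p = 0.075), and its arrays overlapped. GD50 versus GD15 was -0.96 ± 0.29 in the second (adjusted p = 0.0158) and 0.09 ± 0.20 in the first (adjusted p = 0.71).

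ITGB1 encodes the beta subunit shared by most receptors for fibronectin, collagen and laminin. In Yorkshire its log2 intensity was 12.20, 11.99 and 12.11 on GD15, 13.11, 12.69 and 12.48 on GD26 and 12.68, 12.51 and 12.81 on GD50. Meishan values were 11.89, 11.97 and 12.36 on GD15, 13.08, 12.90 and 12.87 on GD26 and 12.93, 12.79 and 12.84 on GD50. In each breed all arrays after GD15 were above all GD15 arrays, and GD26 overlapped GD50.

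ITGB1 rose to GD26 by 0.66 ± 0.20 in Yorkshire (adjusted p = 0.0146) and by 0.88 ± 0.15 in Meishan (adjusted p = 9.54e-04), or 1.58-fold and 1.84-fold. Beyond the medians of all probe sets the rises were 1.13 and 0.94. The Yorkshire call was lost without Yorkshire GD15 array 2 (0.60, adjusted p = 0.058). On GD50 the gene was above GD15, by 0.56 ± 0.20 in Yorkshire (adjusted p = 0.0279, and 0.052 to 0.095 without any GD15 array or without GD50 array 1 or 3) and 0.78 ± 0.15 in Meishan (adjusted p = 0.0019), and GD50 versus GD26 did not pass in either breed (-0.09 and -0.10). No breed difference passed on any day (0.03, -0.19 and -0.18 ± 0.17). ITGB3 and ITGB1, both beta subunits, therefore moved in opposite directions to GD26 in Yorkshire.

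TLN1 encodes talin, which binds the tails of beta subunits and switches integrins to their active form. In Yorkshire its log2 intensity was 8.43, 8.40 and 8.50 on GD15, 9.71, 10.03 and 9.79 on GD26 and 9.06, 9.18 and 9.17 on GD50. In Meishan it was 8.50, 8.26 and 7.88 on GD15, 8.24, 7.96 and 7.85 on GD26 and 8.14, 8.11 and 8.22 on GD50. The Yorkshire days did not overlap one another, and the Meishan days all did.

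TLN1 rose in Yorkshire to GD26 by 1.40 ± 0.15 (adjusted p = 4.51e-05, 2.64-fold), which is 1.87 beyond the median of all probe sets, and fell by 0.70 ± 0.15 on GD50 versus GD26 (adjusted p = 0.0164, and 0.053 without Yorkshire GD26 array 2). It remained above GD15 on GD50, by 0.69 ± 0.15 (adjusted p = 0.0030). Meishan changes were -0.20 ± 0.18 to GD26, 0.14 ± 0.18 to GD50 and -0.06 ± 0.18 over both (adjusted p = 0.38, 0.64 and 0.81). The change to GD26 differed between the breeds by 1.60 ± 0.22 (adjusted p = 1.02e-04).

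On GD15 the breed difference in TLN1 was 0.23 ± 0.16 and did not pass (adjusted p = 0.48). TLN1 was higher in Yorkshire on GD26 by 1.82 ± 0.16 (adjusted p = 3.28e-07, 3.54-fold) and on GD50 by 0.98 ± 0.16 (adjusted p = 1.30e-04, 1.97-fold), without overlap on either day. Since the Yorkshire arrays were dimmer on both days, the differences beyond the medians were 2.24 and 1.44. The second TLN1 probe set, under an intensity of 100 on all arrays, lay the other way on GD26. It read 2.21, 2.18 and 2.43 in Yorkshire and 4.03, 2.18 and 4.54 in Meishan, and was not tested.

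VCL encodes vinculin, which binds talin under tension and strengthens its hold on actin. Its log2 intensity in Yorkshire was 9.96, 9.96 and 9.99 on GD15, 10.84, 10.86 and 10.60 on GD26 and 10.40, 10.15 and 10.26 on GD50. In Meishan the values were 10.21, 10.18 and 9.999 on GD15, 11.57, 11.36 and 11.34 on GD26 and 10.94, 10.81 and 11.002 on GD50. GD26 was the highest and GD15 the lowest in both breeds, with no overlap between days.

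VCL rose to GD26 by 0.80 ± 0.15 in Yorkshire (adjusted p = 0.0014) and 1.29 ± 0.13 in Meishan (adjusted p = 3.50e-05), or 1.74-fold and 2.45-fold. Beyond the medians of all probe sets these were 1.27 and 1.36. It fell by 0.51 ± 0.13 on GD50 versus GD26 in Meishan (adjusted p = 0.0248, and 0.053 to 0.090 without any GD26 array or without GD50 array 1 or 2), and the Yorkshire value of -0.50 ± 0.15 did not pass (adjusted p = 0.063), though it did under 7 of the alternatives (adjusted p = 0.0121 to 0.0453). On GD50 versus GD15 in Yorkshire VCL likewise passed under 7 alternatives only (adjusted p = 0.0013 to 0.0446). VCL was lower in Yorkshire than in Meishan on GD26 (-0.65 ± 0.13, adjusted p = 6.72e-04) and on GD50 (-0.64 ± 0.13, adjusted p = 7.07e-04). These came to -0.23 and -0.18 beyond the medians, and both calls were lost when arrays were centred (adjusted p = 0.071 and 0.16). The breed difference in the change to GD26, -0.49 ± 0.18 (adjusted p = 0.0455), came to -0.09 beyond the median and was lost as well (adjusted p = 0.61), and also on leaving out any of 14 of the 18 arrays (-0.54 to -0.41). In their tested probe sets TLN1 and VCL, which bind each other, thus differed in opposite directions between the breeds on GD26, with only the TLN1 difference kept after centring. The dimmer VCL probe set that exceeded 100 on 2 arrays lay the other way, at 7.39, 5.09 and 5.94 on Yorkshire GD26, against 3.78, 3.32 and 2.48 on Meishan GD26. It was not tested.

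Smooth muscle is rich in vinculin and talin, and the sum of its markers, though not each of them, was also higher on GD26. The summed intensity of 6 of 8 markers was 5361 to 6793 on the Yorkshire GD15 arrays, 12219 to 13894 on GD26 and 10330 to 10703 on GD50, and 7734 to 8917, 16186 to 18057 and 9114 to 12640 in Meishan, with ACTA2 the brightest and DES above an intensity of 100 on only 1 array. Mean log2 intensities of ACTA2, ACTG2, TAGLN and CNN1 were higher on GD26 than on GD15 in both breeds. SMTN, which encodes smoothelin, was at 9.15 on GD26 and 9.09 on GD15 in Yorkshire and at 9.29 and 9.46 in Meishan, and DES, which encodes desmin, at 6.13 and 4.75 in Yorkshire and 4.75 on both days in Meishan. On GD26 the sum was lower in Yorkshire than in Meishan, as VCL was, while TLN1 was higher in Yorkshire. The markers themselves were split on that day. ACTA2 (13.15 in Yorkshire and 13.75 in Meishan), ACTG2, CNN1 and SMTN were lower in Yorkshire, and TAGLN (11.01 and 10.33) and DES were higher. All probe sets lay at a median of -0.42 in Yorkshire relative to Meishan on GD26. The part of smooth muscle in these values was not tested.

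**Figure D3:**
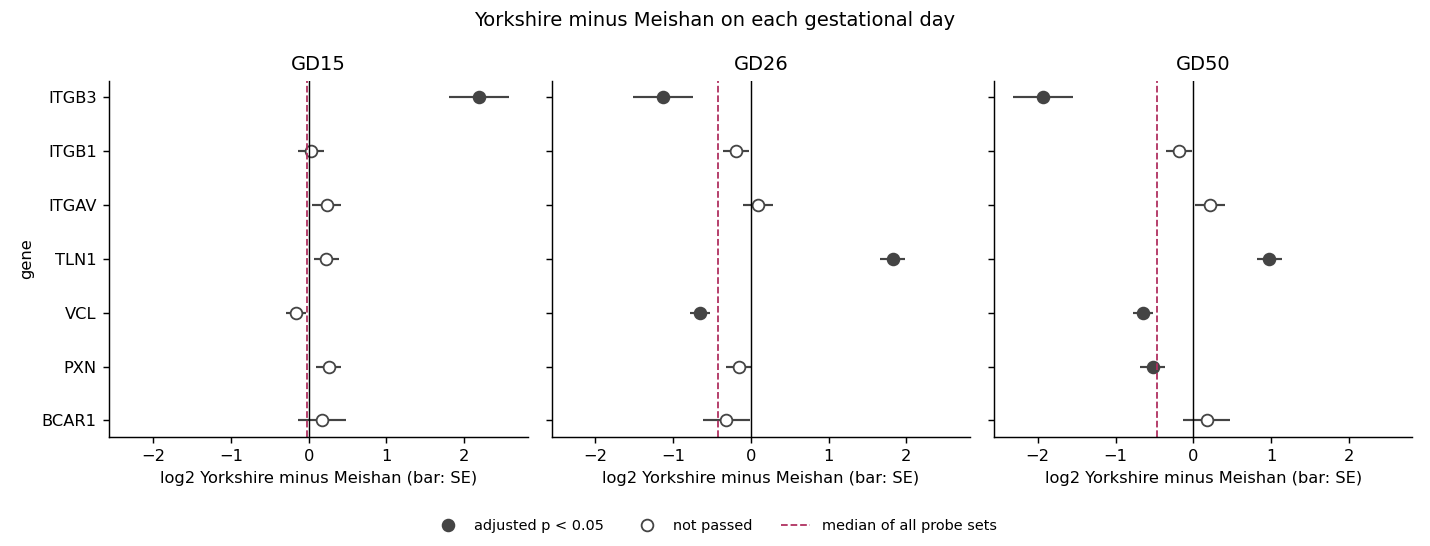
Log2 difference of each gene (rows), Yorkshire minus Meishan, on GD15, GD26 and GD50, with bars of 1 SE. Filled dots passed an adjusted p of 0.05, open dots did not, and dashed lines are the median of all probe sets (-0.42 on GD26 and -0.46 on GD50). ITGB3 runs from 2.19 on GD15 to -1.93 on GD50, TLN1 is at 1.82 on GD26, and PXN on GD50 at -0.52 lies by the dashed line.

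PXN encodes paxillin, a scaffold that arrives early at new adhesions. In Yorkshire its log2 intensity was 10.19, 10.33 and 10.38 on GD15, 8.14, 8.46 and 8.81 on GD26 and 8.30, 8.04 and 8.24 on GD50. Meishan arrays gave 10.06, 9.89 and 10.15 on GD15, 8.52, 8.75 and 8.60 on GD26 and 8.64, 8.81 and 8.68 on GD50. Every GD15 array was over every later array, in both breeds.

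The fall of PXN to GD26 was -1.83 ± 0.20 in Yorkshire (adjusted p = 3.99e-05, 3.55-fold) and -1.41 ± 0.13 in Meishan (adjusted p = 2.06e-05, 2.66-fold). Measured from the medians of all probe sets the falls were near each other, at -1.36 and -1.35. GD50 versus GD26 did not pass in Yorkshire (-0.28 ± 0.20, adjusted p = 0.38) or in Meishan (0.09 ± 0.13, adjusted p = 0.71). PXN was lower in Yorkshire on GD50 (-0.52 ± 0.16, adjusted p = 0.0121), but this was -0.06 beyond the median and did not pass after centring (-0.11, adjusted p = 0.67).

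BCAR1 encodes p130Cas, which is phosphorylated when adhesions are stretched and recruits CRK. Yorkshire arrays gave 7.69, 7.86 and 8.03 on GD15, 6.26, 6.28 and 5.23 on GD26 and 6.04, 5.44 and 6.70 on GD50. Meishan arrays gave 7.76, 7.95 and 7.35 on GD15, 6.19, 6.43 and 6.11 on GD26 and 5.76, 5.74 and 6.17 on GD50. Like PXN it was high on GD15 and low on both later days, where all arrays but 1 were under an intensity of 100.

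The change of BCAR1 to GD26 was -1.94 ± 0.36 in Yorkshire (adjusted p = 0.0012) and -1.44 ± 0.19 in Meishan (adjusted p = 1.99e-04). As GD26 was under 100 on all arrays, the falls were at least 2.32-fold and at least 2.06-fold. GD50 versus GD15 was -1.80 ± 0.36 in Yorkshire (adjusted p = 0.0017) and -1.80 ± 0.19 in Meishan (adjusted p = 4.31e-05). Since BCAR1 passed the filter through its GD15 arrays, falls after GD15 were built in. These changes and their p-values are descriptions, not support for a fall. No breed difference passed on GD15, GD26 or GD50 (0.17, -0.32 and 0.17 ± 0.30, adjusted p = 0.84, 0.39 and 0.64). The GD50 difference passed under quantile normalization (1.02, adjusted p = 0.0034) and cyclic loess (0.81, adjusted p = 0.0288), though as deposited all GD50 arrays but 1 were under 100.

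Between the breeds, 1 of 7 genes differed on GD15 (ITGB3), where 9.80% of all probe sets did, 3 on GD26 (ITGB3, TLN1 and VCL), where 53.2% did, and 4 on GD50 (ITGB3, TLN1, VCL and PXN), where 56.5% did. The change to GD26 differed for 3 of 7 (ITGB3, TLN1 and VCL), against 35.5% of all probe sets. The change from there to GD50 differed for 1 of 7 (TLN1, -0.84 ± 0.22, adjusted p = 0.0436), against 4.37%. On GD26 and GD50 the members' shares were near or under those of the whole array, so these counts are no result about the genes. The TLN1 call for the later change was lost after centring (-0.78, adjusted p = 0.095) and on leaving out any of 14 of the 18 arrays (-0.87 to -0.75).

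Over the 18 arrays, PXN and BCAR1 ran together (r = 0.87, and 0.97 over the 6 group means), as did ITGB1 and VCL (0.81 and 0.88), and ITGB1 ran against PXN (-0.84 and -0.90). Within groups, on deviations from the group means, the same pairs gave -0.30, 0.25 and -0.46, and all values share the arrays and the order of days. The integrin pair ITGB3 and ITGAV gave 0.61 over the arrays, 0.68 over the group means and 0.09 within groups. These are descriptions without a test. The study had singled out PXN and BCAR1 from these same arrays, and BCAR1 passed the filter through its GD15 arrays, so their likeness is not independent evidence.

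Among the 4340 named genes past the filter, the profile most like that of ITGB3 over the 18 arrays was that of ANG, the ribonuclease angiogenin (r = 0.933), followed by FOLR2 (0.848) and TMOD1 (0.846). CAPZB, which caps actin filaments, was nearest to TLN1 (r = 0.964), before CSNK2B (0.949) and BPHL (0.946). PDIA4 was nearest to VCL (0.967), ahead of KPNA2 (0.965) and EAF2 (0.957). SLC5A1, a glucose transporter, was nearest to PXN (0.979), ahead of SLC46A2 (0.978) and LIPA (0.974). For the other 3 genes the nearest were DNAJC6 (0.940), TSPAN12 (0.936) and STT3A (0.935) for ITGB1, ARSA (0.883), CDV3 (0.870) and TCEA3 (0.848) for ITGAV, and THRA (0.944), CLIP4 (0.933) and CDIP1 (0.929) for BCAR1.

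The other genes of integrin adhesion were taken from lists of 115 genes, of which 37 had a named probe set past the filter. On GD26 versus GD15, 14 of the 37 rose and 5 fell in Yorkshire, with a median of 0.16 against -0.47 for all probe sets, and 16 rose and 3 fell in Meishan (0.33 against -0.06). Of all probe sets 20.3% rose and 44.9% fell in Yorkshire, and 23.8% and 27.1% in Meishan. On GD50 versus GD26 the 4 that passed in Yorkshire all fell, and in Meishan 1 rose and 4 fell, where 5.72% of all probe sets rose and 7.85% fell in Yorkshire and 8.2% and 10.2% in Meishan. These later counts were near or under the shares of the whole array.

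Ligands made up 7 of the 14 rises in Yorkshire. Of 9 measured on a list of 22, the 7 that passed on GD26 versus GD15 in Yorkshire all rose (median of the list 1.45). In Meishan 6 rose and 1 fell (median 1.07). Over the whole array 20.3% rose and 44.9% fell in Yorkshire, and 23.8% and 27.1% in Meishan. The list was chosen with earlier results of these data known. SPP1, which encodes osteopontin, a ligand of alpha V integrins, rose by 2.64 ± 0.36 in Yorkshire (adjusted p = 1.77e-04) and 3.07 ± 0.74 in Meishan (adjusted p = 0.0066). THBS1, encoding the matrix protein thrombospondin, rose by 4.58 ± 0.29 in Yorkshire and 4.13 ± 0.43 in Meishan, and FN1, encoding fibronectin, by 0.89 and 0.83. FN1 then fell by 1.08 ± 0.29 in Yorkshire on GD50 versus GD26 (adjusted p = 0.0383). CYR61, a matricellular ligand, rose by at least 7.46-fold in Yorkshire and by 1.82 ± 0.25 in Meishan. POSTN, encoding periostin, rose in Yorkshire by at least 2.44-fold and fell by at least 2.44-fold on GD50 versus GD26, and in Meishan neither change passed (-0.44 and 0.98). Most measured ligands thus rose on the day when ITGAV fell, in both breeds.

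**Figure D4:**
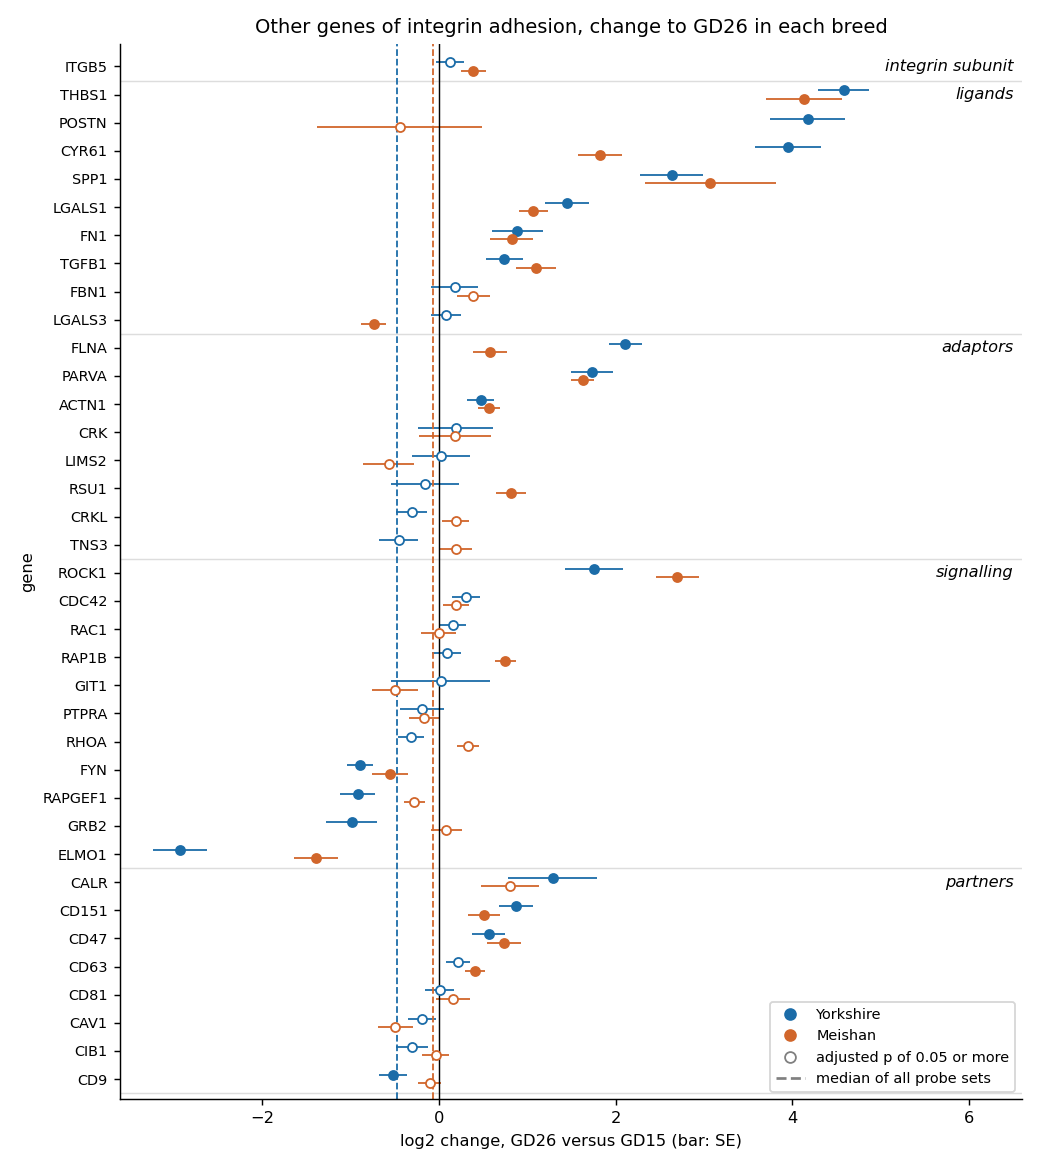
Log2 change on GD26 versus GD15 of the 37 other genes (rows, by role) in Yorkshire (blue) and Meishan (orange), with bars of 1 SE. Filled dots passed an adjusted p of 0.05 and dashed lines are the medians of all probe sets. The ligands THBS1 at 4.58 and SPP1 at 2.64 in Yorkshire lie far right, and ELMO1 at -2.92 far left.

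Of 8 measured adaptors on a list of 31, the 3 that passed on GD26 versus GD15 in Yorkshire and the 4 that passed in Meishan all rose, beside 20.3% and 23.8% of all probe sets that rose. FLNA, the actin crosslinker filamin A, rose by 2.11 ± 0.19 in Yorkshire and 0.58 ± 0.19 in Meishan, and the change differed between the breeds by 1.53, in the direction of TLN1. PARVA, which joins integrin-linked kinase to actin, rose by 1.73 in Yorkshire and 1.63 in Meishan, and ACTN1, encoding the crosslinker alpha-actinin, by 0.47 and 0.57.

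Signalling genes were mixed. Of 11 measured on a list of 28, 1 rose and 4 fell in Yorkshire (20.3% and 44.9% of all probe sets), and 2 rose and 2 fell in Meishan (23.8% and 27.1%), near or under the shares of the whole array. ROCK1, a kinase that drives contraction, rose by 1.75 ± 0.33 in Yorkshire and 2.70 ± 0.24 in Meishan, there at least 3.68-fold. ELMO1, a partner of the activator of RAC1 that acts below paxillin and p130Cas, changed by -2.92 ± 0.31 in Yorkshire and -1.38 ± 0.25 in Meishan, falls of at least 1.60-fold and at least 1.90-fold. No GD26 array of ELMO1 was above 100, and its means in Yorkshire and Meishan were 7.33 and 7.57 on GD15 and 5.24 and 6.37 on GD50. It thus passed the filter through arrays of the other days, so a fall to GD26 was largely built into its passing. ELMO1 stands here and in the counts as a description. CRK and CRKL, the adaptors that bind p130Cas, did not pass on GD26 versus GD15 in either breed.

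Of 8 measured integrin partners on a list of 12, 3 rose and 1 fell in Yorkshire (20.3% and 44.9% of all probe sets), and the 3 that passed in Meishan all rose (23.8%). CD151, a tetraspanin that binds laminin receptors, rose by 0.88 and 0.51, and CD47, a partner of ITGB3, by 0.56 and 0.74. In Yorkshire CALR rose by 1.29 ± 0.51, with arrays that overlapped. CD9 changed there by -0.52 ± 0.16, near the median of all probe sets at -0.47. Among other integrin subunits ITGB5, a further beta partner of ITGAV, was the only one measured past the filter. It rose in Meishan to GD26 by 0.39 ± 0.14 (adjusted p = 0.0389) and fell by 0.65 ± 0.16 in Yorkshire on GD50 versus GD26 (adjusted p = 0.0285), and either call was lost in 7 of the 9 fits that left out 1 array.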

How the data were processed

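Endometrial RNA from 6 groups of breed and gestational day was hybridized to 18 Affymetrix porcine arrays. The authors made the deposited log2 values from the raw intensities with GCRMA and affy, packages of Bioconductor. The submitters' processing notes also name RMA, and versions and the genome build are not given in the sources used here. Controls (124 probe sets) were left out, and following the filter of the study's methods the 9320 probe sets that exceeded an intensity of 100 on 6 or more arrays were fitted. Days were compared in 1 limma 3.58.1 fit per breed (lmFit and eBayes, R 4.3.3), and breeds and differences of changes in 1 fit over the 6 groups. P-values were adjusted by Benjamini-Hochberg over the 9320, and a gene rose, fell or differed at an adjusted p under 0.05. Where all arrays of a group were at or under 100, a fold is given as a bound, with 100 in place of that group. Yorkshire is always over Meishan, and the later day over the earlier.

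Genes were named from the platform annotation (10099 probe sets with 1 symbol, 198 with several and 13826 with none), by the brightest probe set past the filter for genes that are not members. Members, gene lists and marker lists were chosen with earlier results of these data known. For likeness the 3 genes with the highest Pearson r over the 18 arrays are named. The genes named from each adhesion list were drawn from the up to 4 with the largest changes past the test in each breed and step. Not all of those are named. CRK, CRKL and ITGA5 were named after their values were seen. Markers of glands, epithelium, stroma, smooth muscle, endothelium, platelets, macrophages, leukocytes, trophoblast and blood were summed as intensities. The fit was tested on simulated data. Replicate numbers were not used to pair the samples in the main fits. Alternatives were a filter after the fit, none or other filters, 3 scalings, a floor of 100, a variance trend, Bonferroni, a replicate block, 1 fit over both breeds and leaving out each array. Figures were drawn with matplotlib 3.10.9.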

Additional observations from a re-analysis of the deposited data

Results flagged for a closer look

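The course of 3 genes differed between Yorkshire and Meishan in the main fit, by a test of the difference itself. The change of ITGB3 on GD26 versus GD15 differed by -3.32 in Yorkshire relative to Meishan on the log2 scale (SE 0.54, adjusted p = 3.58e-04), as the 3 Yorkshire arrays fell below their GD15 range and the Meishan arrays overlapped theirs. With intensities under 100 set to 100 it was -1.28 (adjusted p = 0.0043), since only 1 of the 9 arrays of Yorkshire GD26 and of Meishan GD15 and GD26 was above 100. For TLN1 the same change differed by 1.60 (SE 0.22, adjusted p = 1.02e-04), and the change on GD50 versus GD26 by -0.84 (SE 0.22, adjusted p = 0.0436). For VCL the change on GD26 versus GD15 differed by -0.49 (SE 0.18, adjusted p = 0.0455). After centring on the median the VCL call and the later TLN1 call were lost (-0.14 and -0.78, adjusted p = 0.61 and 0.095). The median of all probe sets differed by -0.41 in the first change and by -0.03 in the second, so the VCL value lay near the shift of the whole array, and those of ITGB3 and TLN1 lay -2.91 and 2.00 beyond it.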

How the results depend on the processing

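Of the values of the 7 genes over all alternatives, 1758 kept direction and side of the threshold, 95 lost the call, 23 gained one, 55 moved without a call and 1 reversed, the ITGAV change on Yorkshire GD50 versus GD15 with the second probe set (-0.96). Among other adhesion genes CALR on Yorkshire GD26 versus GD15 reversed (-0.0488) with Yorkshire GD26 taken from array 1 alone, an alternative chosen, like the second probe set, after seeing the data. Bonferroni adjustment left 1 of the 7 genes called on Yorkshire GD26 versus GD15, 0 on GD50 versus GD26 and 1 on GD50 versus GD15, and 2, 1 and 3 in Meishan. For the breeds it left 0 on GD15, 1 on GD26 and 0 on GD50, and for the differences of changes 1 and 0. Centring on the median left 1 breed difference on GD26. For the later difference of changes (TLN1), centring, quantile normalization, cyclic loess, the replicate block and Yorkshire GD26 from array 1 alone each left 0, a floor of 100 gave 2, and leaving out 1 array gave 0 to 1. Yorkshire GD26 from array 1 alone left 1 called on Yorkshire GD50 versus GD26. The causes were not tested, beyond the stricter adjustment itself. Same-numbered arrays correlated in their deviations at -0.07 to 0.27 in Yorkshire and -0.14 to 0.33 in Meishan. Differently numbered arrays correlated at -0.30 to 0.18 and -0.33 to 0.22. These ranges overlap but do not settle whether the numbers pair the samples, and the main fits did not pair them. The replicate block also lost the VCL difference of changes (adjusted p = 0.0503). The signal limits ITGB3 and BCAR1, which were under 100 on whole groups.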

Other observations

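ITGA5, whose product pairs with the ITGB1 product in the fibronectin receptor, missed the filter by 1 array. Its brighter probe set read 3.93, 3.98 and 3.99 on Yorkshire GD15, 8.39, 8.46 and 8.13 on GD26 and 7.47, 6.45 and 7.98 on GD50. In Meishan it read 4.84, 4.36 and 4.57 on GD15, 5.12, 4.07 and 4.24 on GD26 and 4.07, 4.01 and 4.07 on GD50. The 5 arrays above 100 were all Yorkshire arrays of GD26 and GD50, the days on which TLN1 was higher in Yorkshire and on which those arrays also had fewer probe sets at the lowest values. The dimmer ITGA5 probe set stayed at or below 4.47. The dimmer VCL probe set that was not tested had the same outline, at 6.90, 6.09 and 6.04 on Yorkshire GD50, against at most 3.36 on Meishan GD50. Whether the state of these arrays enters either value was not tested.

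Of 22 other integrin subunits listed, 9 had a named probe set and ITGB5 alone passed the filter. ITGB2, the beta subunit of leukocytes, was above 100 on 3 arrays, and ITGA2, ITGA2B, ITGA6, ITGA8, ITGAM and ITGB7 were above 100 on 0 of 18 arrays.

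Among the remaining marker lists, on the Yorkshire GD15, GD26 and GD50 arrays in turn, the summed intensity of 7 gland markers was 30293 to 36918, 68823 to 77048 and 88646 to 90239. In Meishan it was 21880 to 35008, 69557 to 80636 and 91097 to 95907. These sums were carried by SPP1, also listed as a ligand, and ACP5, while the mean log2 intensities of SAL1, FOXA2 and PGR were lower on GD26 than on GD15 in both breeds. PGR and ESR1 were above 100 on 0 arrays, and PGR in Meishan was at 5.56 on GD26 and 5.71 on GD15. ESR1 went the other way, at 4.51 on GD26 and 2.24 on GD15 in Yorkshire and at 2.32 and 2.23 in Meishan. SAL1 was at 3.46 on GD26 and 10.80 on GD15 in Yorkshire and at 4.16 and 10.59 in Meishan, and MUC1 at 6.203 and 8.39 in Yorkshire and 7.01 and 7.36 in Meishan. The 5 epithelial markers summed to 20266 to 30041 in Yorkshire and 23184 to 30411 in Meishan over all days, 5 stromal markers to 23983 to 32482 and 22689 to 39070, and 7 endothelial markers to 1764 to 3063 and 2230 to 4147. Leukocyte markers (5 measured) summed to 86.2 to 267 in Yorkshire and 93.5 to 249 in Meishan, and blood markers (3 measured) to 153 to 438 and 210 to 557.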
